A study of Mus musculus with 24 samples.

Results

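Genes of mitosis, the spindle and the kinetochore were followed in resting and activated mouse CD4+ T cells with and without Raptor. The set was named gene by gene: 53 genes that act in mitotic entry, the spindle checkpoint, the kinetochore, the spindle, chromosome condensation, anaphase or cytokinesis. The arrays measured 51 of them among 17097 genes in all, while Ccnb1 and Nuf2 were not matched to a probe set and were not analysed here. Each gene was read from its brightest probe set (by the mean of the 24 arrays), and the other probe sets of 29 of these genes served as a check. Members were listed by name and none was dropped for a low level, but the list was chosen with earlier results of these data known.

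A resting naive T cell does not divide and holds little RNA from mitotic genes. After stimulation through the T cell receptor and CD28 it grows, enters the cell cycle, copies its DNA, and then raises the mitotic genes late in the cycle, when cyclin-dependent kinases and the transcription factors MYBL2 and FOXM1 act on their promoters. Many of these promoters carry CCAAT boxes, which are bound by NF-Y, and a cell cycle genes homology region (CHR), the element that recruits MuvB complexes (DREAM in resting cells, where it represses, and MYBL2 or FOXM1 bound forms in dividing cells, where it activates).

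The genotypes were CD4(cre)Raptor(fl/fl), written as Raptor-deficient below, and wild type (WT), for which the strain C57BL/6 is also named. Raptor is the defining subunit of mTORC1, the growth-controlling kinase complex, and Cre driven by the Cd4 promoter recombines the floxed gene in T cells during thymic development, before the cells were sorted. Naive cells (CD4+CD62LhiCD44loCD25-) were sorted from spleen and peripheral lymph nodes and used unstimulated, or after 8 h or 24 h of culture with plate-bound anti-CD3 and anti-CD28, with 4 samples in each of the 6 groups. The series was designed to set the RNA profiles of the genotypes side by side before and after stimulation. RNA was read on Affymetrix HT MG-430 PM arrays, and every level below is a log2 intensity as deposited, so that a difference of 1 is a fold of 2. The age of the mice is not given in the sources used here, and the labels do not state whether replicates are separate animals: p-values cover only the spread among the samples at hand, which may be technical.

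Rptor, the targeted gene, read 5.92, 7.37, 6.55 and 6.79 in unstimulated Raptor-deficient cells, against 7.04, 7.49, 7.19 and 7.39 in unstimulated WT cells. It read 6.27 to 6.79 in Raptor-deficient cells against 7.46 to 7.57 in WT cells at 8 h, and 6.25 to 6.60 against 6.91 to 7.21 at 24 h. Raptor-deficient samples were thus below WT at both stimulated times, while unstimulated Raptor-deficient replicate 2 lay inside the WT range. Whether the probe set lies in the deleted part was not examined here. The 7 measured T cell markers, Cd3d, Cd3e, Cd3g, Cd4, Thy1, Cd5 and Cd28, were no lower than 5.51, the median over all gene values, in every group, with array means of 9.81 to 10.7. Of 6 B cell markers, Cd79a (0.64) and Pax5 (1.37) were higher in Raptor-deficient cells at 24 h, where the array means of the list were 4.74 to 5.44 in Raptor-deficient cells against 4.27 to 4.46 in WT cells. Replicate 1 of both 24 h groups stood apart in 7 liver genes, with Alb at 9.11 in the Raptor-deficient sample and 9.02 in the WT sample, against 6.22 to 6.42 in the other 24 h samples. Of the T cell markers, Thy1 was lower in Raptor-deficient cells by 0.70 at 8 h and 0.39 at 24 h, and Cd4 by 0.37 unstimulated and 0.36 at 8 h. Of 8 myeloid markers, S100a9 was higher in unstimulated cells (0.88), S100a8 (1.02) and S100a9 (0.84) at 8 h and Lyz2 (0.40) at 24 h, with array means of the list at 24 h of 4.12 to 4.40 in Raptor-deficient cells against 4.09 to 4.18 in WT cells. Of 5 NK cell markers, Klrd1 was lower in unstimulated cells (-1.65) and Nkg7 higher at 24 h (0.69), with array means at 24 h of 3.95 to 4.32 in Raptor-deficient cells against 3.80 to 3.98 in WT cells. Of 2 erythroid markers, Hba-a1 was higher in Raptor-deficient cells by 0.80 unstimulated, 0.97 at 8 h and 0.92 at 24 h, not called at any time. Alas2 was not called either. The 2 CD8 T cell markers, Cd8a and Cd8b1, were no lower than 5.51 in every group and did not differ by call between genotypes. The part of these markers in the results was not tested, and counts without replicate 1 of both 24 h groups are given beside the main ones.

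The promoters are shown first, because most of these genes share a pair of short elements. RefSeq (GRCm38.p6) gave a window for 44 of the 53 genes, from 250 bases before to 50 bases after the annotated start. Windows were searched on both strands for the CHR letters TTTGAA and for CCAAT. The CHR letters stood in 31 of the 44 genes (70.5%), against 20.2% of all 27025 genes with a window and 15.7% of the 13605 measured genes with one. CCAAT stood in 32 (72.7%), against 41.1% of all genes, and both motifs stood in 27 (61.4%), against 7.97% of all genes. Within 50 bases of the start the CHR letters were found in 29 members (65.9%), against 5.72% of all genes. A match is a description of the letters and not a binding site.

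The windows of 5 genes that hold the CHR letters, and of Pttg1, which holds neither motif, are printed below with the motif letters in capitals. TTTGAA or, on the other strand, TTCAAA marks the CHR, and CCAAT or ATTGG marks the CCAAT box. Mki67 and Ube2c were among the genes with the largest falls without Raptor. Mki67, Ccnb2 and Cdca5 each carry the CHR letters in 2 places. Plk1 is a central mitotic kinase with 1 of each motif, and Pttg1 was not lower without Raptor at 24 h. Bub3 and Cenpa, also not called at 24 h though close to the threshold, hold both motifs, whereas Birc5, Nusap1 and Mad2l1 hold neither and were lower. A link between motifs and falls was not tested.
Mki67 (chr7:135716330-135716629, minus strand): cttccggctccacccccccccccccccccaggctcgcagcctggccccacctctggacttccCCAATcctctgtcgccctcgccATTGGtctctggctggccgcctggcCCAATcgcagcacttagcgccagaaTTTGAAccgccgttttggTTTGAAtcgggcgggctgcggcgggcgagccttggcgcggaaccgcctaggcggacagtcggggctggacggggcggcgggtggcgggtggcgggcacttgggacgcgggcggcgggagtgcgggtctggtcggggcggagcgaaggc
Ube2c (chr2:164769679-164769978, plus strand): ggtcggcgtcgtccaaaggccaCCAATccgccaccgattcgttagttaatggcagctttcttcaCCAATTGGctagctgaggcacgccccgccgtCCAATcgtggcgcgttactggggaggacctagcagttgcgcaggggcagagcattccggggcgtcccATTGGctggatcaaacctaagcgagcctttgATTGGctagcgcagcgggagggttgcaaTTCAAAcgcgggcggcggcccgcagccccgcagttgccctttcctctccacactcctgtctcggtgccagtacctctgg
Ccnb2 (chr9:70421505-70421804, minus strand): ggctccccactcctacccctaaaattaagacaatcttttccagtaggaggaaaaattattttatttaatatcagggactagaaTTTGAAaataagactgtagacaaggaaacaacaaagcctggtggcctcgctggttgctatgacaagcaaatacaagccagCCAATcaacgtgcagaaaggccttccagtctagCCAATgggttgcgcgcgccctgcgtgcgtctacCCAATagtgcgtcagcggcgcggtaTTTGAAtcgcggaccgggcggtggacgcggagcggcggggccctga
Cdca5 (chr19:6084847-6085146, plus strand): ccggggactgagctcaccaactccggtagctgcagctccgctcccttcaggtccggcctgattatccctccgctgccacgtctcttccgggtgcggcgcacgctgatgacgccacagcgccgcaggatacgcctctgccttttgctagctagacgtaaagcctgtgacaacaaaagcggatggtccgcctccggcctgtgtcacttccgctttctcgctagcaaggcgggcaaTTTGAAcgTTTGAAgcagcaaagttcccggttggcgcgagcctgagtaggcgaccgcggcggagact
Plk1 (chr7:122159185-122159484, plus strand): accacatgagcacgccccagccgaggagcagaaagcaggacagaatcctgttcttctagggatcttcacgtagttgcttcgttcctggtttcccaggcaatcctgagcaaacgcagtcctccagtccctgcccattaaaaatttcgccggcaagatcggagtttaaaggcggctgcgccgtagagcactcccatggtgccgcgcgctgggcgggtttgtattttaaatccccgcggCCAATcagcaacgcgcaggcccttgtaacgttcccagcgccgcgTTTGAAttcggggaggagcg
Pttg1 (chr11:43425932-43426231, minus strand): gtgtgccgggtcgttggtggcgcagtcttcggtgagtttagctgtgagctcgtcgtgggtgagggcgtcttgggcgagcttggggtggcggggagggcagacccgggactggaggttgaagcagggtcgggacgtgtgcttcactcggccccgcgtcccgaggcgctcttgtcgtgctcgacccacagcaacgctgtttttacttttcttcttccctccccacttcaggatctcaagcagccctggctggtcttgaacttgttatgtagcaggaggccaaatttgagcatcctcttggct

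Other cell cycle genes differed from the mitotic ones in the CHR letters more than in CCAAT. The CHR letters stood in 5 of 29 genes of the DNA replication machinery (17.2%) and in 0 of 9 G1 cyclins, kinases and inhibitors, while CCAAT stood in 20 (69.0%) and 5 (55.6%) of them. Among genes listed separately from the members, the CHR letters stood in 13 of 21 further spindle and cytokinesis genes (61.9%) and in 9 of 25 further kinetochore and centromere genes (36%). The variant letters TTTAAA stood in 10 members (22.7%), against 14.9% of all genes. Mad2l1, Birc5, Nusap1 and Pttg1 were among the members with a window but without either the CHR letters or CCAAT.

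**Figure D1:**
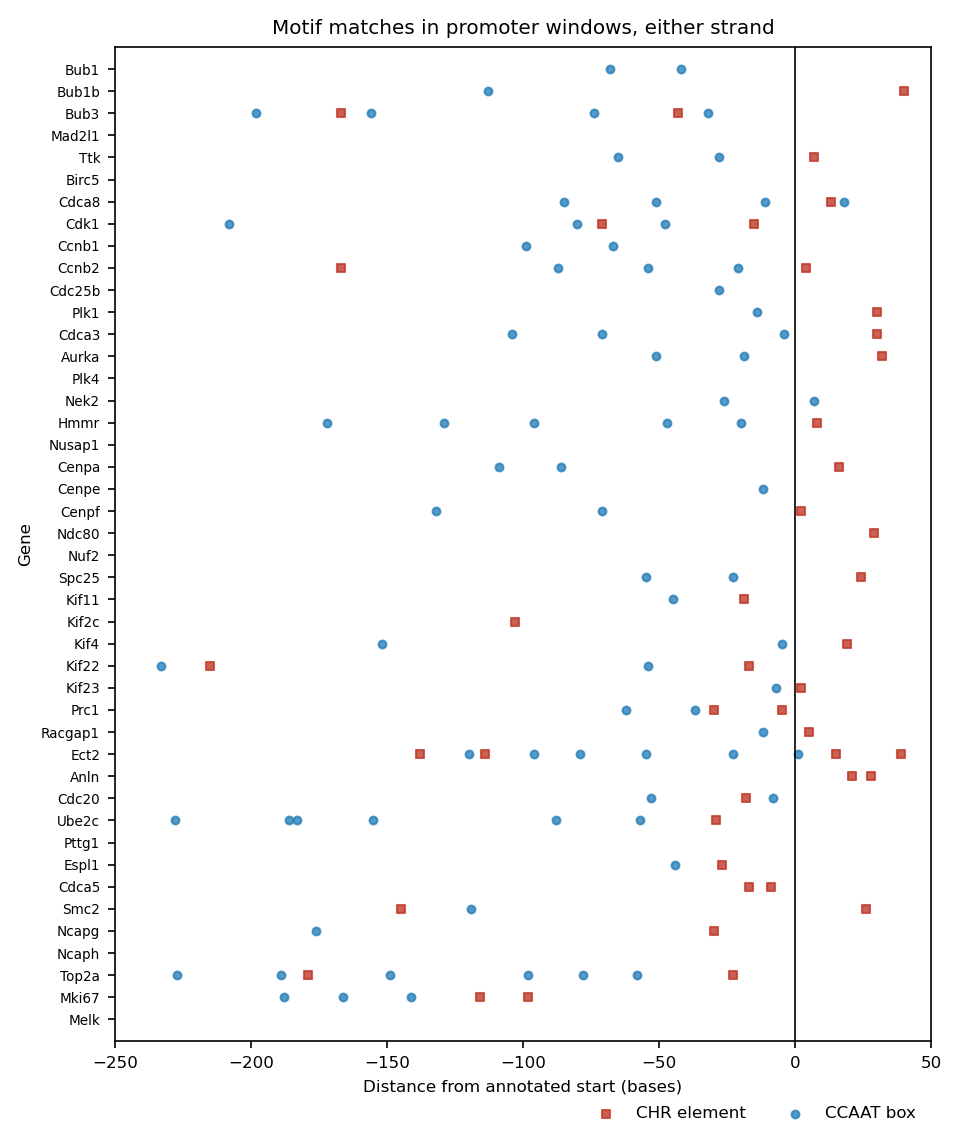
Position of CHR letters (squares) and CCAAT letters (circles) on either strand in the promoter windows of the 44 members with one, as the distance in bases from the annotated start (vertical line). CHR matches lie within 50 bases of the start in 29 members, with CCAAT matches mostly upstream of them.

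At 24 h, 47 of the 51 mitotic genes were lower in Raptor-deficient cells than in WT cells and 0 were higher (limma, Benjamini-Hochberg adjusted p under 0.05 over all genes). Over all genes, 13.1% were called lower and 8.35% higher in that comparison. The median difference of the members was -2.20 on the log2 scale, against 0.01 over all genes, and 43 of the 47 fell by 2-fold or more, against 2% of all genes. All 4 Raptor-deficient samples lay below all 4 WT samples for 48 members, against 16.5% of all genes. The median over the members of each array was 5.49 to 5.70 in Raptor-deficient cells and 7.62 to 7.83 in WT cells. Without replicate 1 of both genotypes, 47 members were again called lower. Of the 20 genes with the lowest difference among all 17097, 12 were members: Mki67, Birc5, Aurkb, Ube2c, Cenpf, Ccna2, Kif23, Kif11, Cdca3, Cdca8, Cdca5 and Nusap1. RNA came from whole samples, so fewer cells in the mitotic part of the cycle and less RNA of these genes per cell cannot be told apart.

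**Figure D2:**
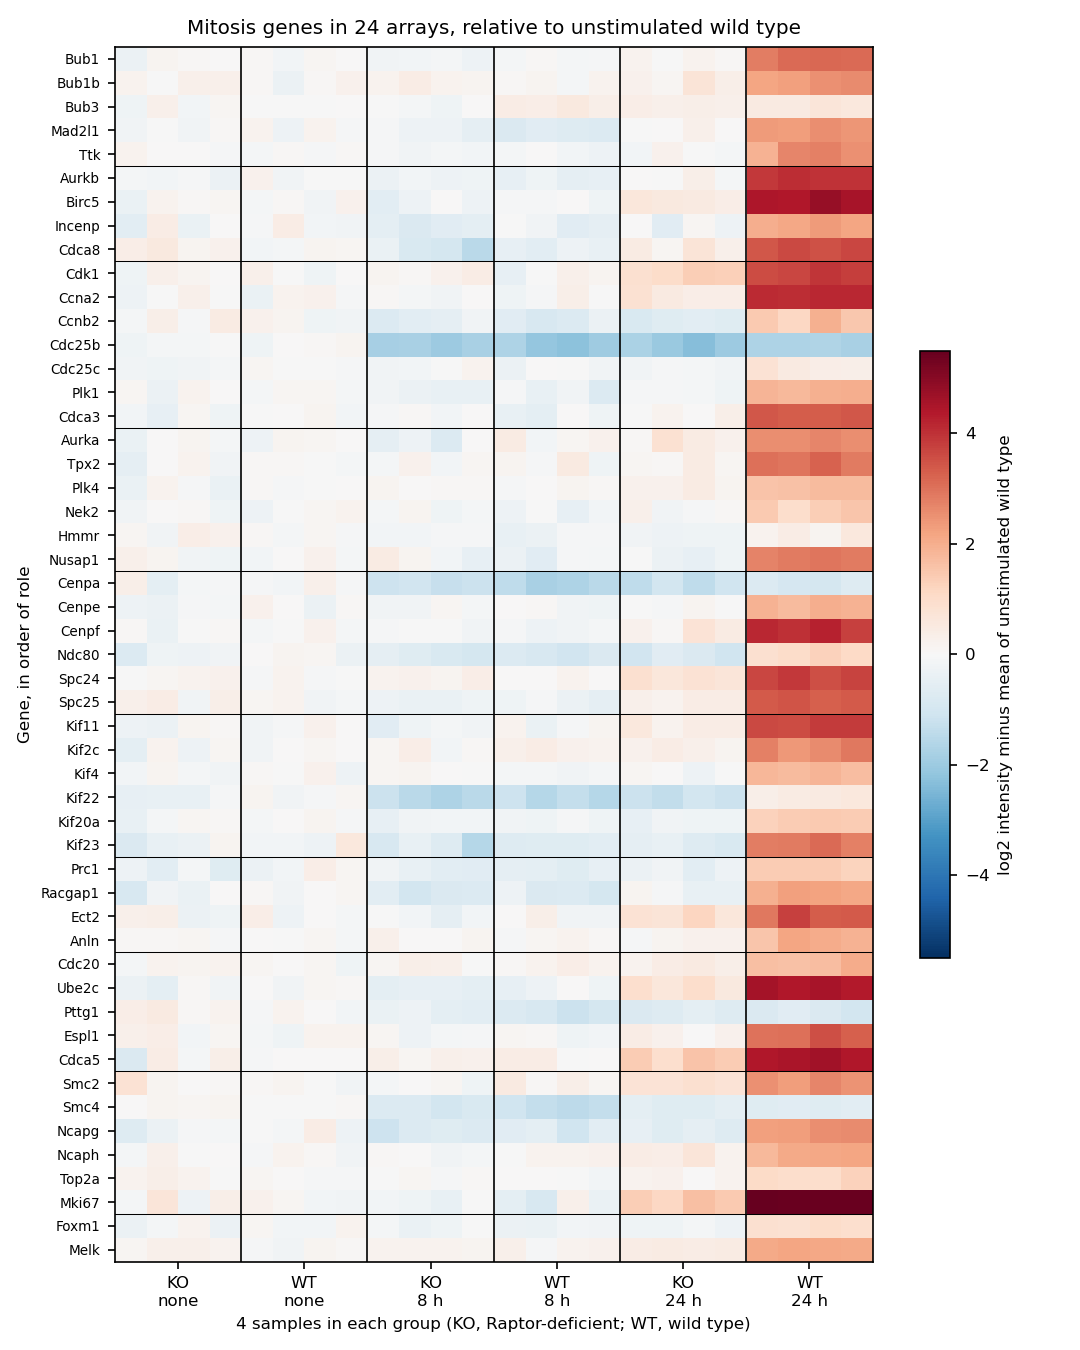
Log2 intensity of the 51 measured members in each of the 24 arrays, minus the mean of unstimulated WT samples (colour scale), with genes grouped by role and Raptor-deficient (KO) samples left of WT at each time. The 4 WT arrays at 24 h form the block of high values. In Raptor-deficient cells at 24 h, 18 members were called higher and 8 lower than in unstimulated cells of that genotype, and 25 were not called (21.6% of all genes were called higher and 17.5% lower).

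All 7 genes of mitotic entry, kinases, cyclins, phosphatases and Cdca3, were called lower, although the call of Cdc25b depended on single samples. Cdk1, the mitotic cyclin-dependent kinase, read 5.92, 6.04, 6.37 and 6.33 in Raptor-deficient cells, against 8.60, 8.70, 8.98 and 8.82 in WT cells. The groups did not overlap, and the difference was -2.61 (SE 0.14, adjusted p = 2.2e-13), a 6.10-fold lower intensity. Ccna2, the cyclin A that partners CDK1 and CDK2, was 5.79 to 6.25 in Raptor-deficient cells and 9.46 to 9.58 in WT cells (-3.60, SE 0.13). Ccnb2, a cyclin B, was 4.87 to 5.12 in Raptor-deficient cells and 6.86 to 7.66 in WT cells (-2.20, SE 0.16). Plk1, the polo-like kinase needed for entry, spindle and exit, fell by 2.03 (SE 0.12), and Cdca3, which promotes entry through loss of the WEE1 kinase, fell by 3.24 (SE 0.12).

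The phosphatases that remove inhibitory phosphate from CDK1 moved least in this group. Cdc25c was 4.66 to 4.81 in Raptor-deficient cells and 5.21 to 5.69 in WT cells, a difference of -0.64 (SE 0.10, adjusted p = 3.3e-05). Cdc25b read 6.08, 5.76, 5.48 and 5.84 in Raptor-deficient cells, against 6.11, 6.14, 6.16 and 6.02 in WT cells. Its groups overlapped, because Raptor-deficient replicate 1 lay above 1 WT sample, and its difference of -0.32 (SE 0.11, adjusted p = 0.0470) was just past the threshold. Leaving out any 1 of the 4 WT samples at 24 h ended its call, with adjusted p of 0.0564 to 0.108, as did leaving out Raptor-deficient replicate 2, 3 or 4 at 24 h.

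Of the 5 spindle checkpoint genes, whose products hold back anaphase until every kinetochore is attached, 4 were lower. Bub1, a kinase that recruits the checkpoint to kinetochores, read 3.64, 3.45, 3.63 and 3.53 in Raptor-deficient cells, against 6.27, 6.58, 6.62 and 6.58 in WT cells (-2.95, SE 0.10, adjusted p = 5.9e-18). In unstimulated cells Bub1 read 3.14 to 3.62 in Raptor-deficient samples and 3.29 to 3.56 in WT samples, so that the stimulated Raptor-deficient samples lay close to the resting level. Mad2l1, the MAD2 protein that inhibits CDC20, fell by 2.32 (SE 0.11), Bub1b, the BUBR1 kinase, fell by 2.06 (SE 0.13), and Ttk, the MPS1 kinase at the head of the pathway, fell by 2.48 (SE 0.13). Bub3, a WD40 adaptor also found outside the checkpoint, read 9.01 to 9.09 in Raptor-deficient cells and 9.23 to 9.43 in WT cells. Those groups did not overlap, but the difference of -0.26 (SE 0.09) had an adjusted p of 0.0519 and was not called.

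All 4 genes of the chromosomal passenger complex, which corrects faulty kinetochore attachments and later drives cytokinesis, were lower, with a median of -3.54. Birc5, the survivin subunit, read 5.98, 5.87, 5.84 and 5.71 in Raptor-deficient cells, against 9.77, 9.73, 10.13 and 9.88 in WT cells. That was a 16.3-fold lower intensity (-4.03, SE 0.13, adjusted p = 2.7e-18), with a gap between the groups far wider than the spread inside either. Aurkb, the Aurora B kinase of the complex, read 4.14 to 4.55 in Raptor-deficient cells and 8.12 to 8.28 in WT cells (-3.91, SE 0.10). The Raptor-deficient values were below 5.51, the median over all gene values. Background was not estimated, and at such low levels a fold is that of measured intensities only. Cdca8, borealin, fell by 3.17 (SE 0.16) and Incenp, the scaffold, by 2.34 (SE 0.18).

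At the kinetochore, the protein assembly that joins chromosomes to microtubules, 5 of 6 members were lower. Spc24 and Spc25, subunits of the Ndc80 complex that grips the microtubule, fell by 2.96 (SE 0.09) and 3.07 (SE 0.11), and Ndc80 itself fell by 1.96 (SE 0.14). Cenpf, a large protein of the outer kinetochore, was 3.65 to 4.38 in Raptor-deficient cells and 7.37 to 7.83 in WT cells (-3.66, SE 0.13). Cenpe, the kinetochore kinesin, fell by 1.89 (SE 0.10) on its chosen probe set, while a dimmer set differed by -4.17 (SE 0.17). Cenpa, the histone H3 variant that marks centromeres, read 6.17, 6.53, 6.16 and 6.44 in Raptor-deficient cells, against 6.79, 6.61, 6.57 and 6.83 in WT cells. Its groups did not overlap, and its difference of -0.38 (SE 0.14) had an adjusted p of 0.0504. A further Cenpa probe set differed by -1.24 (SE 0.11, adjusted p = 5.3e-09 in the fit over all probe sets), so the probe sets of this gene disagree in size.

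The 6 genes of spindle poles and assembly were all lower. Nusap1, which bundles spindle microtubules, was 4.65 to 5.07 in Raptor-deficient cells and 7.83 to 8.05 in WT cells (-3.11, SE 0.15). Tpx2, which activates Aurora A at the spindle, fell by 2.84 (SE 0.14), and Aurka, Aurora A itself, fell by 2.19 (SE 0.16). Plk4, the kinase of centriole duplication, fell by 1.40 (SE 0.10) and Nek2, which acts in centrosome separation, by 1.30 (SE 0.13). Hmmr, a spindle-associated hyaluronan receptor, fell by 0.58 (SE 0.11) on its chosen probe set, while its 4 other probe sets differed by -0.36 to -2.74, all called lower. All 6 mitotic kinesins, the motors of the spindle, were lower by 1.64 to 3.50. Kif23, the motor of the central spindle, and Kif11, which pushes the poles apart, had the largest falls among them, 3.50 (SE 0.20) and 3.34 (SE 0.13). A dimmer Kif23 probe set differed by only -0.08 (SE 0.10) and was not called (adjusted p = 0.641 in the fit over all probe sets), so the probe sets of this gene disagree. Kif2c, a microtubule depolymerase, fell by 2.40 (SE 0.14), Kif4 and Kif22, which bind chromosome arms, by 1.83 (SE 0.10) and 1.66 (SE 0.11), and Kif20a, which acts in cytokinesis, by 1.64 (SE 0.10).

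The 4 cytokinesis genes were lower as well. Ect2, which activates RHOA at the cleavage furrow, was 3.90 to 4.46 in Raptor-deficient cells and 6.18 to 7.03 in WT cells (-2.51, SE 0.18). Racgap1, the partner of KIF23 in centralspindlin, fell by 2.32 (SE 0.16), Prc1, which cross-links the midzone, by 1.69 (SE 0.13), and Anln, the furrow scaffold anillin, by 1.76 (SE 0.11). For Anln the fold is between low intensities, since both group means, 3.41 and 5.17, lay under 5.51.

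Anaphase genes divided. Ube2c, the ubiquitin-conjugating enzyme of the anaphase-promoting complex, read 6.46, 6.18, 6.49 and 6.08 in Raptor-deficient cells, against 10.10, 9.96, 10.08 and 9.91 in WT cells. That was 13.1-fold lower (-3.71, SE 0.11, adjusted p = 2.1e-18). Cdca5, sororin, which protects cohesin until anaphase, fell by 3.16 (SE 0.18), Espl1, the protease separase that cuts cohesin, by 2.97 (SE 0.14), and Cdc20, the activator of the complex, by 1.41 (SE 0.11). Pttg1, securin, the inhibitor of separase, read 9.02, 9.10, 9.28 and 9.09 in Raptor-deficient cells, while the WT samples ran from 8.79 to 9.15. Its groups overlapped and the difference of 0.14 (SE 0.11) was not called (adjusted p = 0.447). Espl1 was 7.85-fold lower in the same samples. A further Pttg1 probe set was higher in Raptor-deficient cells by 0.73 (SE 0.12, adjusted p = 6.1e-05 over all probe sets).

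In the group of condensin and chromosome structure, 5 of 6 members were lower. Mki67, the proliferation marker Ki-67 that coats mitotic chromosomes, read 6.91, 6.67, 7.20 and 6.99 in Raptor-deficient cells, against 11.02, 10.96, 10.97 and 10.97 in WT cells. The difference, -4.04 (SE 0.19, adjusted p = 6.7e-15, 16.5-fold), was the largest of the members on their chosen probe sets. Dimmer probe sets of Cenpe (-4.17, SE 0.17), Ncapg (-4.11, SE 0.12) and Aurkb (-4.07, SE 0.11) had larger differences. For other members a dimmer set differed much less than the chosen one, among them Bub1 (-0.55, SE 0.10) and Nusap1 (-0.84, SE 0.11). Dimmer sets of Cenpf (-0.35, SE 0.16), Bub1b (-0.15, SE 0.09), Incenp (0.14, SE 0.09) and Nek2 (-0.10 and -0.09) were not called. The condensin subunits Ncapg, Smc2 and Ncaph fell by 3.01 (SE 0.15), 1.70 (SE 0.14) and 1.63 (SE 0.11). Smc4, the other ATPase of condensin, read 11.36, 11.22, 11.21 and 11.33 in Raptor-deficient cells, against 11.23, 11.27, 11.23 and 11.30 in WT cells. These overlapped, with a difference of 0.02 (SE 0.08, adjusted p = 0.888). Top2a, the topoisomerase that untangles sister chromatids, fell by 0.90 (SE 0.09) on its chosen probe set and by 3.52 (SE 0.14) on a dimmer one. The difference of the third Top2a probe set was 0.27 (SE 0.15) and was not called. Foxm1, the transcription factor of mitotic genes, fell by 1.15 (SE 0.11) and Melk, a kinase that binds it, by 1.68 (SE 0.08). The other Foxm1 probe sets differed by -1.44 (SE 0.13), -2.51 (SE 0.10) and, not called, 0.06 (SE 0.10).

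**Figure D3:**
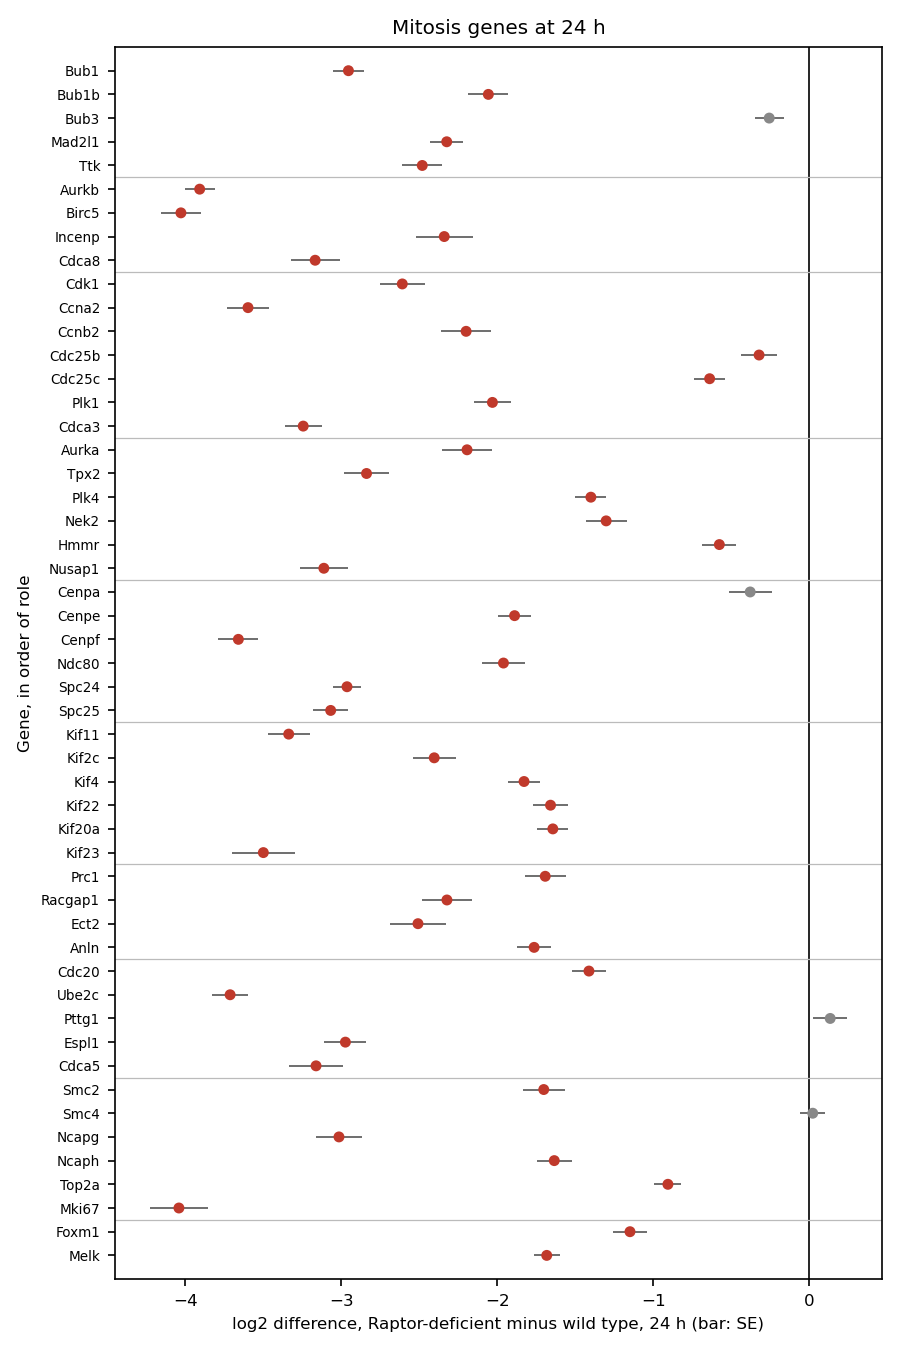
Log2 difference, Raptor-deficient minus WT, at 24 h for each measured member (point) with its standard error (bar), in order of role, red where called lower and grey where not called. The 47 called genes lie left of 0, from Mki67 at -4.04 to Cdc25b at -0.32, and the 4 not called are Cenpa at -0.38, Bub3 at -0.26, Smc4 at 0.02 and Pttg1 at 0.14.

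Other probe sets gave the same direction in most cases. Of the 25 called members with more than 1 probe set, 18 had every other set called lower, 6 had some and 1, Kif23, had none. None of the 25 had another set called higher. Among the 46 other sets of the 29 genes, 31 were called lower and 1 was called higher, the Pttg1 set above. No Bub3 or Smc4 set was called.

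The difference arose between 8 h and 24 h. In Raptor-deficient cells 22 members rose over that interval and 0 fell, where 15.2% and 7.81% of all genes were called. In WT cells 48 members rose and 0 fell, where 17.4% and 11% of all genes were called. The median change of the members was 0.24 in Raptor-deficient cells and 2.40 in WT cells, and 5 members in Raptor-deficient cells against 44 in WT cells rose by 2-fold or more, where 2.07% and 3.76% of all genes did. The genotypes' changes differed for 48 members, each smaller in Raptor-deficient cells (median -2.21), and 0 the other way, where 3.2% and 1.33% of all genes were called. These comparisons share the WT or the Raptor-deficient arrays with the 24 h comparison and are not independent of it. Without replicate 1 of both 24 h groups, 19 members rose in Raptor-deficient cells, 48 rose in WT cells, and the change differed for 47.

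Mki67 in Raptor-deficient cells averaged 6.94 ± 0.22 at 24 h and 5.33 ± 0.17 at 8 h (SD, n = 4 each), a rise of 1.61, or 3.06-fold. In WT cells it averaged 10.98 ± 0.03 at 24 h and 5.15 ± 0.49 at 8 h, a rise of 5.83, or 56.8-fold. The 5 members that rose 2-fold or more in Raptor-deficient cells were Mki67, Cdca8 (1.30), Ube2c (1.25), Cdca5 (1.09) and Ect2 (1.03). Of the 48 members that rose in WT cells, 21 also rose in Raptor-deficient cells. Bub3 rose in Raptor-deficient cells by 0.39 (SE 0.09, adjusted p = 0.0027), while its WT change of 0.16 (SE 0.09) was not called (adjusted p = 0.22), and the difference between those changes, 0.23 (SE 0.13), was not called either. With the mean of its probe sets, the Raptor-deficient change turned to -0.12 and was not called (adjusted p = 0.357). Ndc80 and Nusap1 had changes of -0.16 and -0.26 in Raptor-deficient cells, not called, against rises of 1.94 and 3.13 in WT cells.

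For the 48 members that rose in WT cells, the Raptor-deficient change was a median of 10.5% of the WT rise (log2 scale, quartiles 4.86% and 17.5%). It was under 10% for 23 of them and over 50% for 0, with the highest share, 37.2%, in Smc2. Taking each Raptor-deficient sample at 24 h alone, the median share was 9.74% to 12.5% (11.3% ± 1.16, SD, n = 4). For 35 genes of the DNA replication machinery that rose in WT cells, chosen by the same test, the median share was 43.4% (quartiles 32.2% and 59.0%), and 13 were over 50%. Their median share per Raptor-deficient sample was 37.7% to 52.0%. The shares are descriptions of genes kept because they rose in WT cells, and all samples share the same 8 h and WT means. At 8 h in Raptor-deficient cells, 35 of the 48 mitotic genes lay under 5.51, against 9 of the 35 replication genes, and the difference between the lists was not tested.

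**Figure D4:**
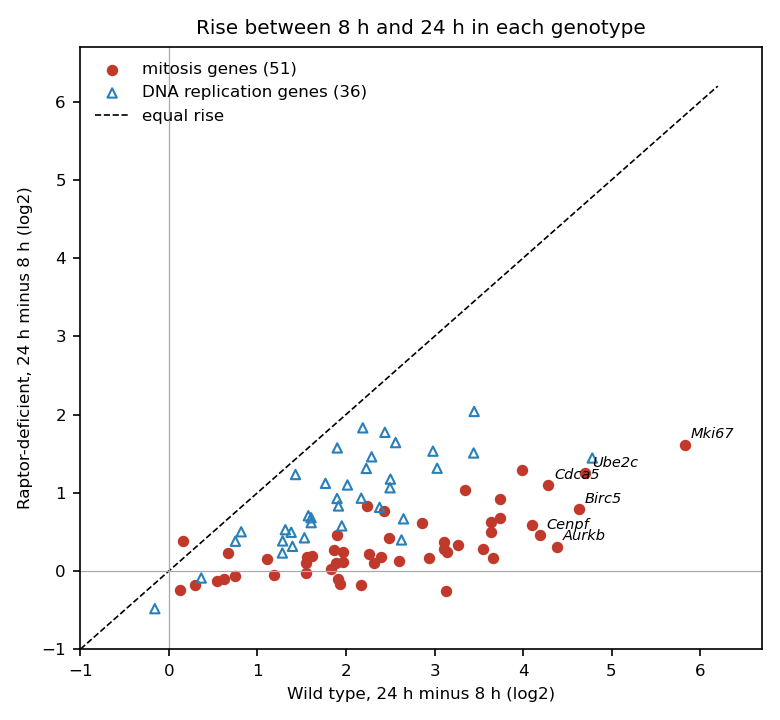
Change between 8 h and 24 h (24 h minus 8 h, log2) in Raptor-deficient cells (vertical axis) against WT cells (horizontal axis) for 51 mitosis genes (circles) and 36 DNA replication genes (triangles), with equal change dashed. Most mitosis genes lie far below the dashed line, and 5 of them (Mki67, Cdca8, Ube2c, Cdca5 and Ect2) rose 2-fold or more in Raptor-deficient cells, by 1.03 to 1.61.

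Unstimulated cells of the genotypes differed in 0 members, where 0.702% of all genes were called higher and 1.24% lower without Raptor. Without adjustment 8 of the 51 members had a p under 0.05, 3 higher and 5 lower. Over all 17097 genes 2386 did, 968 higher and 1418 lower. The median difference of the members was -0.04. The sizes ran from -0.41 (Prc1, SE 0.13) to 0.33. Members whose group mean lay under 5.51, the median over all gene values, numbered 30 in Raptor-deficient and 28 in WT unstimulated cells. They numbered 35 and 33 at 8 h, and 23 and 2 at 24 h. Most of these genes thus lay under that median before 24 h, and background was not estimated.

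At 8 h, 4 members were higher and 3 lower in Raptor-deficient cells, where 4.14% of all genes were called higher and 8.77% lower, and the median was 0.02. Smc4, bright at every time, read 11.13, 11.14, 10.89 and 11.04 in Raptor-deficient cells, against 10.79, 10.57, 10.43 and 10.59 in WT cells (0.46, SE 0.08, adjusted p = 0.00022). Pttg1 read 9.42, 9.53, 9.27 and 9.23 in Raptor-deficient cells, against 9.03, 8.93, 8.63 and 8.84 in WT cells (0.51, SE 0.11, adjusted p = 0.0019). Both groups were separate for each gene. Mad2l1 was 0.42 higher (SE 0.11, adjusted p = 0.0077) and Cenpa 0.43 higher (SE 0.14, adjusted p = 0.038). Bub3 was 8.52 to 8.77 in Raptor-deficient cells and 9.06 to 9.27 in WT cells (-0.48, SE 0.09, adjusted p = 0.00073), but with the mean of its probe sets the difference was -0.11 and was not called (adjusted p = 0.488). Cdca8 (-0.48, SE 0.16) and Aurka (-0.53, SE 0.16) were called lower, with groups that overlapped, and Cdca8 lost its call when single arrays were left out, Raptor-deficient replicate 4 at 8 h most (adjusted p = 0.241). Without Raptor-deficient replicate 1 or 3, or WT replicate 1 or 4, Aurka had an adjusted p of 0.0653 to 0.113. Cenpa had an adjusted p of 0.0687 to 0.135 without Raptor-deficient replicate 1, 2 or 4, or WT replicate 2 or 3. With the mean of their probe sets, Cenpa (0.17, adjusted p = 0.335) and Cdca8 (-0.22, adjusted p = 0.209) were not called.

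Smc4, Pttg1 and Cenpa were above their later level in resting cells. Smc4 averaged 11.98 and 11.88 in unstimulated Raptor-deficient and WT cells, 11.05 and 10.59 at 8 h, and 11.28 and 11.26 at 24 h. Pttg1 averaged 10.08 and 9.80 in unstimulated Raptor-deficient and WT cells, 9.36 and 8.86 at 8 h, and 9.12 and 8.99 at 24 h. Cenpa averaged 7.45, 6.39 and 6.32 at these times in Raptor-deficient cells, and 7.55, 5.96 and 6.70 in WT cells. In the course from unstimulated cells to 8 h, 14 members fell and 0 rose in Raptor-deficient cells (16.8% and 16% of all genes were called), and 15 fell and 1, Bub3, rose in WT cells (20.8% and 18.9%). That Bub3 rise of 0.40 was 0.08, and not called, with the mean of its probe sets (adjusted p = 0.485). Cdc25b had the largest of these falls in both genotypes, 1.73 (SE 0.11) in Raptor-deficient cells and 2.0 (SE 0.11) in WT cells. The change from unstimulated cells differed between genotypes for Mad2l1 (0.50, SE 0.15), Bub3 (-0.48, SE 0.13) and Cdca8 (-0.80, SE 0.22), 1 member higher and 2 lower, where 1.94% and 4.36% of all genes were called. None of these 3 calls held in all 34 alternatives run. Mad2l1 lost its call in 19, 14 of which left out a single sample. Bub3 lost its call in 9 (up to 0.754), with a value of -0.09 for the mean of its probe sets, and without Raptor-deficient replicate 2 or 3 or WT replicate 3 at 8 h, or unstimulated Raptor-deficient replicate 2 or 4 or WT replicate 3. Cdca8 lost it in 7 (up to 0.213), with -0.34 for the mean of its probe sets, and without Raptor-deficient replicate 4 or WT replicate 3 at 8 h, or unstimulated Raptor-deficient replicate 2 or WT replicate 1 or 2.

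Against unstimulated cells, 18 members were higher and 8 lower at 24 h in Raptor-deficient cells (21.6% and 17.5% of all genes), and 47 were higher and 4 lower in WT cells (25.4% and 24.3%). The 4 lower in WT cells were Cdc25b, Cenpa, Pttg1 and Smc4, and the 8 lower in Raptor-deficient cells were these and Ccnb2, Hmmr, Ndc80 and Kif22. The change differed for 46 members, each lower in Raptor-deficient cells, and for 0 the other way (8.01% and 5.26% of all genes). The 5 without such a difference were Bub3, Cdc25b, Cenpa, Pttg1 and Smc4.

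**Figure D5:**
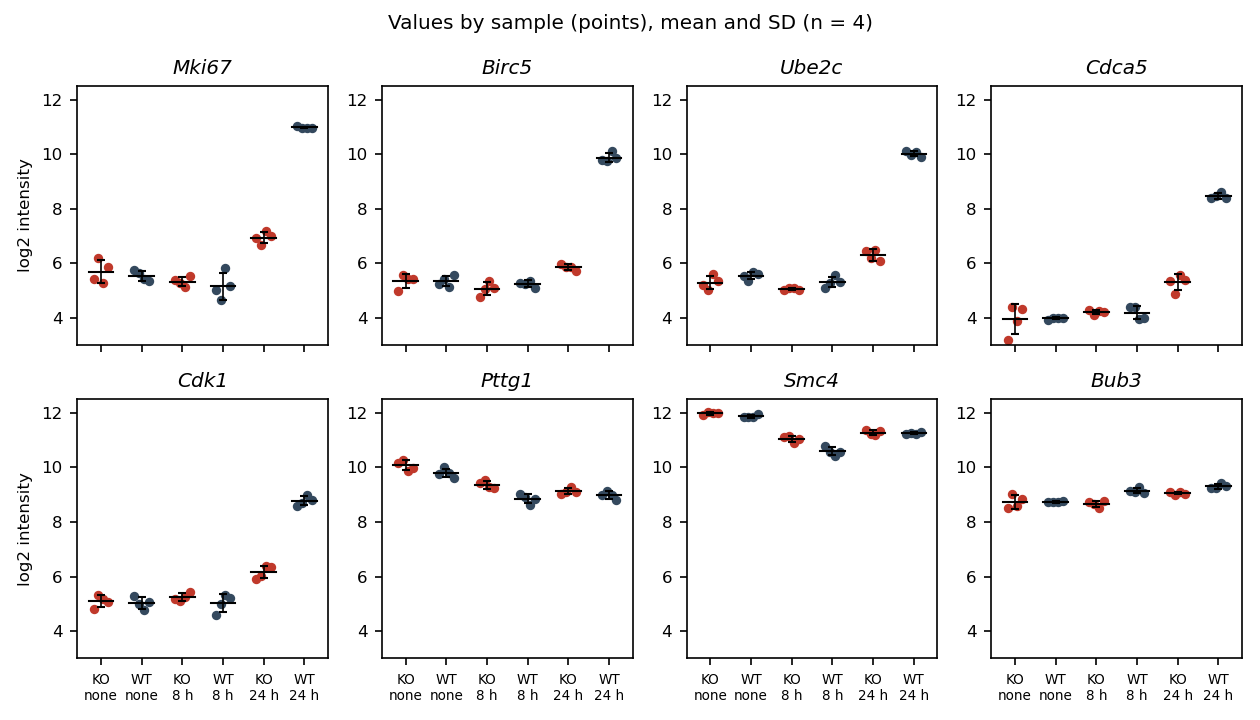
Log2 intensity in each sample (points), with the group mean (line) and SD (bar, n = 4), for 8 members in Raptor-deficient (KO, red) and WT (dark) cells at 3 times. Mki67, Birc5, Ube2c, Cdca5 and Cdk1 are high in WT cells at 24 h, while Pttg1, Smc4 and Bub3 are bright at every time and not called different between genotypes at 24 h.

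Genes of the same processes outside the set were listed by process. Over all genes at 24 h, 13.1% were called lower and 8.35% higher without Raptor. At 24 h, 25 of 27 further kinetochore and centromere genes were lower without Raptor and 0 higher (median -1.19), with Cenpi (-2.62, SE 0.12), Cenpk (-2.66, SE 0.14) and Zwilch (-2.84, SE 0.18) having the smallest p. Of 24 further spindle and cytokinesis genes 23 were lower and 1, Numa1 (0.36, SE 0.10), was higher (median -1.24). Cep55, which brings the abscission machinery to the midbody, fell by 3.85 (SE 0.15) and Aspm, a spindle pole protein, by 2.84 (SE 0.15). Depdc1a fell by 1.44 (SE 0.07), with both group means under 5.51. Of 4 further condensin genes 3 were lower, Ncapg2 of condensin II (-3.09, SE 0.17), Ncapd2 (-1.53, SE 0.12) and Ncapd3 (-0.44, SE 0.11).

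Subunits of the anaphase-promoting complex and of cohesin were listed separately, and their difference from the other lists was not tested. At 24 h, 13.1% of all genes were called lower and 8.35% higher without Raptor. Of 15 genes of the complex 8 were lower and 0 higher (median -0.26), with Fbxo5, its inhibitor EMI1 (-1.82, SE 0.11), Ube2s (-0.77, SE 0.08) and Anapc15 (-0.54, SE 0.12) having the smallest p. Of 10 genes of cohesin and its loaders, 3 were lower and 2, the loaders Nipbl (0.43, SE 0.07) and Mau2 (0.52, SE 0.11), were higher (median -0.11). Esco2, the cohesin acetyltransferase of S phase, fell by 3.92 (SE 0.12). Of 9 genes of mitotic entry control 7 were lower and 1, Mastl (0.35, SE 0.11), was higher, with Ccnf (-2.0, SE 0.15), Cks2 (-1.43, SE 0.14) and Pkmyt1 (-1.26, SE 0.13) having the smallest p. Of the 5 genes of the MuvB core with Mybl2, Mybl2 (-2.43, SE 0.16) and Rbbp4 (-0.40, SE 0.11) were lower.

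Of 36 genes of the DNA replication machinery 35 were lower without Raptor at 24 h and 0 higher (median -1.21, against -2.20 for the mitotic genes), with Cdc45 (-2.21, SE 0.10), Mcm10 (-2.29, SE 0.11) and Cdc6 (-3.41, SE 0.17) having the smallest p. Of 13 G1 cyclins, kinases and inhibitors 5 were lower and 2 higher (median -0.06), where 13.1% of all genes were called lower and 8.35% higher. Ccne1 and Ccne2, the E-type cyclins of S phase entry, fell by 2.01 (SE 0.12) and 1.28 (SE 0.16), and Ccnd3, a D-type cyclin, by 0.86 (SE 0.09). The 2 higher genes were the CDK inhibitors Cdkn1a, p21 (0.90, SE 0.17), and Cdkn1b, p27 (0.71, SE 0.18). At 8 h, where 8.77% of all genes were called lower and 4.14% higher, 9 replication genes were lower and 1 higher. Their median was -0.18, against 0.02 for the mitotic genes. The difference between these lists was not tested.

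Set beside the promoter motifs, the 31 measured members with the CHR letters had a median difference of -2.32 at 24 h, from -4.04 to -0.26, and the 11 measured members with a window but without those letters had a median of -1.68, from -4.03 to 0.14. Members with both motifs (27) had a median of -2.32 and the other 15 a median of -1.89. These ranges overlap widely. Birc5, with the second largest fall on the chosen probe sets, had neither motif in its window, as did Pttg1, whose level was not lower. Bub3 (-0.26) and Cenpa (-0.38), not called at 24 h, had both motifs. Both lay close to the threshold, with groups that did not overlap, and were called lower in 8 (Bub3) and 11 (Cenpa) of the alternatives run.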

How the data were processed

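RNA from 24 samples in 6 groups of 4 was amplified, biotin-labelled and hybridised, per the labels' protocols. The authors deposited log2 intensities, made with RMA and Partek 6.5 per the submitters' processing notes. Of 45141 probe sets 28898 named 1 symbol, 551 several, and 15692 were not listed. RefSeq GRCm38.p6 held the Entrez numbers of 28689 probe sets. The probe set with the highest mean stood for each of 17097 genes, with no filter on low values. A linear model of the 6 groups over the 24 samples was fitted in limma 3.58.1 (R 4.3.3), with 18 residual degrees of freedom and plain empirical Bayes moderation. Tests were two-sided with Benjamini-Hochberg adjustment over all genes in each of 12 comparisons. The pipeline was tested on simulated data. Array medians lay between 5.15 and 5.29, and the number of arrays limits precision.

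The members, lists and tests were chosen with earlier results of these data known. Every measured member could be named. Members of each role, those with the lowest and highest difference at 24 h and those against the majority were named in full, as were the 3 called genes with the smallest p of each further list. Genes outside these rules (Numa1, Mastl, Cdkn1a and Cdkn1b, among the higher genes) were named after their values were seen. Replicate numbers were not taken as pairs. Alternatives tried were averaging the probe sets of a gene, dim genes left out, cyclic loess, array medians subtracted, an intensity trend with a robust prior, array weights, only the compared groups in the fit, replicate blocks, and each sample left out.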

Additional observations from a re-analysis of the deposited data

Results flagged for a closer look

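In 21 of 306 groups of 4 samples, 1 sample lay far from the other 3, by a rule that chance meets in about 1 group in 20. In Raptor-deficient cells at 24 h, replicate 3 was the highest for Mad2l1 (6.68, others 6.42 to 6.47), Tpx2 (4.99, others 4.64 to 4.65) and Smc2 (7.92, others 7.78 to 7.80). Replicate 1 of that group was the lowest for Kif20a, at 6.64 against 6.85 to 6.88. In WT cells at 24 h, Bub1 was low in replicate 1 (6.27, others 6.58 to 6.62), Prc1 was low in replicate 4 (6.86, others 7.02 to 7.04), Aurka was high in replicate 3 (7.83, others 7.70 to 7.71) and Mki67 was high in replicate 1 (11.02, others 10.96 to 10.97). All of these gaps were small beside the differences between genotypes at 24 h.

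In Raptor-deficient cells at 8 h, Cdc25b was low in replicate 3 (5.83, others 6.01 to 6.03), Cenpf in replicate 4 (3.41, others 3.56 to 3.58) and Ncapg in replicate 1 (5.16, others 5.54 to 5.62), while Plk4 was high in replicate 1 (6.28, others 6.14 to 6.16). In WT cells at 8 h, Aurkb was high in replicate 2 (4.0, others 3.73 to 3.78), Spc24 was high in replicate 3 (5.24, others 5.05 to 5.07) and Ncaph was low in replicate 1 (5.75, others 5.97 to 6.01). In unstimulated Raptor-deficient cells Kif22 was high in replicate 4 (7.29, others 6.88 to 6.94) and Cdc20 was low in replicate 1 (5.12, others 5.39 to 5.42). In unstimulated WT cells Incenp was high in replicate 2 (6.76, others 6.17 to 6.26), Kif23 in replicate 4 (5.52, others 4.66 to 4.77) and Smc4 in replicate 4 (11.96, others at 11.85), while Cdca5 was low in replicate 1 (3.91, others at 4.0).

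Genotypes differed in the change from 8 h to 24 h for 48 members, by limma's test of the difference between changes (Raptor-deficient minus WT, log2), each smaller in Raptor-deficient cells. Among checkpoint genes the values were -2.82 for Bub1, -2.21 for Bub1b, -2.74 for Mad2l1 and -2.47 for Ttk. In the passenger complex they were -4.07 for Aurkb, -3.84 for Birc5, -2.06 for Incenp and -2.69 for Cdca8. For entry genes they were -2.82 for Cdk1, -3.52 for Ccna2, -2.34 for Ccnb2, -0.72 for Cdc25c, -2.04 for Plk1 and -3.50 for Cdca3. At spindle poles they were -1.66 for Aurka, -2.78 for Tpx2, -1.43 for Plk4, -1.45 for Nek2, -0.67 for Hmmr and -3.38 for Nusap1. At the kinetochore they were -0.80 for Cenpa, -1.85 for Cenpe, -3.73 for Cenpf, -2.10 for Ndc80, -3.14 for Spc24 and -3.01 for Spc25. Kinesins had values of -3.06 for Kif11, -2.22 for Kif2c, -2.01 for Kif4, -1.59 for Kif22, -1.58 for Kif20a and -3.27 for Kif23. Cytokinesis genes had -1.78 for Prc1, -2.24 for Racgap1, -2.31 for Ect2 and -1.81 for Anln. Anaphase genes had -1.38 for Cdc20, -3.46 for Ube2c, -2.94 for Espl1 and -3.18 for Cdca5. Chromosome structure genes had -1.41 for Smc2, -0.43 for Smc4, -2.90 for Ncapg, -1.44 for Ncaph, -0.95 for Top2a and -4.21 for Mki67. Foxm1 and Melk had -1.24 and -1.72. From unstimulated cells to 8 h the changes differed for Bub3 (-0.48), Mad2l1 (0.50) and Cdca8 (-0.80). Each of these 3 lost its call under some of the 34 alternatives run, Mad2l1 in 19, Bub3 in 9 and Cdca8 in 7. From 8 h to 24 h, Smc4 lost its call in 3 (adjusted p up to 0.0888) and Cenpa without replicate 1 of both 24 h groups (adjusted p = 0.0620).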

How the results depend on the processing

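At 24 h, 46 of the 47 members called lower without Raptor were called lower under every alternative run, and Cdc25b lost its call in 16 of them. The count was 46 to 49 when single samples were left out. The mean of all probe sets gave 1 member called higher at 24 h (Pttg1), 1 lower at 8 h, and, from unstimulated cells to 8 h, 1 higher in Raptor-deficient and 0 higher in WT cells. With that mean, Bub3 turned to -0.13 in Raptor-deficient and -0.047 in WT cells at 24 h against unstimulated cells, and to -0.12 in Raptor-deficient cells at 24 h against 8 h, since its probe sets differ. From unstimulated cells to 8 h, 1 member was higher in Raptor-deficient cells with cyclic loess and with array weights, 9 were lower with only the compared groups in the fit, and in WT cells 3 were higher with cyclic loess and 2 with array medians subtracted or only the compared groups. Cyclic loess gave 1 member lower in Raptor-deficient cells at 24 h against 8 h. The genotype difference in the change to 8 h had 2 members higher with dim genes left out, cyclic loess or array weights, and 0 with array medians subtracted, only the compared groups, or without replicate 1 of both 24 h groups. It had 0 lower with the mean of probe sets or only the compared groups, and 1 with cyclic loess. The causes were not tested. With single samples left out, the counts ranged from 0 to 1 lower in unstimulated cells, 1 to 3 lower at 8 h, 1 to 2 higher in WT and 0 to 1 higher in Raptor-deficient cells from unstimulated to 8 h, and 0 to 2 higher and 0 to 3 lower for the genotype difference in that change.

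Whether the shared replicate numbers pair the samples is not settled, and they were not taken as pairs. In no pair of groups did all 4 same-numbered samples correlate above 0.1, a cut-off that does not exclude pairing. Between the genotypes at 24 h, 3 of 4 did (0.0641 to 0.251, mean 0.147), and replicate 1 of both groups shared the high liver genes. The mean for other numbers, -0.0489, was largely set by centring each group on its own mean and is not a separate comparison. Between the genotypes at 8 h, 2 of 4 were above 0.1 (0.016 to 0.24, mean 0.13). In unstimulated cells 1 of 4 was (0.027 to 0.12, mean 0.075), so the same-numbered correlations between genotypes were positive at each time. With the replicate number as a block, 48 members were lower at 24 h, 4 higher and 2 lower at 8 h, and 0 differed unstimulated. Low signals, perhaps near background, which was not estimated, limit the folds of members whose group mean lay under 5.51.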

Other observations

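Cdc25b, Cenpa, Pttg1 and Smc4 were lower at 24 h than in unstimulated cells in both genotypes. Smc4 differed by -0.70 (SE 0.08) in Raptor-deficient cells and by -0.63 (SE 0.08) in WT cells, Pttg1 by -0.95 (SE 0.11) and -0.81 (SE 0.11), Cenpa by -1.12 (SE 0.14) and -0.85 (SE 0.14), and Cdc25b by -1.91 (SE 0.11) and -1.71 (SE 0.11). The genotypes' changes did not pass the test of a difference for these 4 genes.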
